A study of Mus musculus with 48 samples.

Results

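A set of 32 genes of the choroid plexus epithelium was followed through all 48 libraries of a study of spinocerebellar ataxia type 1 in mice. They were taken by gene symbol, from knowledge of the tissue and with earlier results of these data known, and are 32 of the 23731 gene symbols in the tables. The study sequenced poly-A RNA of the inferior olive, a nucleus of the ventral medulla whose axons are the climbing fibers of Purkinje cells, and of the cerebellum, in mice aged 5 or 12 weeks. Each tissue and age was sampled in 2 models, with 3 mutant and 3 WT control libraries, and each such set of 6 libraries forms 1 table, so there are 8 tables. All animals were male. The knock-in (KI) model, Atxn1 154Q/2Q on C57BL/6J, carries an expanded CAG repeat in 1 endogenous Atxn1 allele, so the mutant protein is made wherever Atxn1 is expressed. In the transgenic (Tg) model, ATXN1-82Q on FVB/NJ, a human ATXN1 with an expanded repeat is driven by the Pcp2 promoter, which is active in Purkinje cells. WT controls were of the strain of their model, so strain, model and table cannot be told apart. The olive was dissected with the decussation of the pyramids and the pons as landmarks. The question asked here is how far these genes varied from library to library of a genotype, and how far between genotypes.

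The choroid plexus is a fold of vascular tissue covered by a cuboidal epithelium that hangs in the ventricles of the brain and secretes the cerebrospinal fluid. Its epithelial cells form a barrier with claudin junctions, move water and ions through channels and transporters on their ventricular face, and release carrier proteins and growth factor antagonists into the fluid. The plexus of the fourth ventricle lies between the cerebellum and the dorsal medulla.

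Of the 32 genes, 30 have an entry of their own in all 8 tables. Clic6 shares its entry with 2410124H12Rik in the 4 cerebellum tables and Aqp1 shares one with Fam188b in the younger KI inferior olive table (5 weeks). The values there belong to both genes together. Tmem72 has 2 entries in the 4 Tg tables, of which the first was used. The unit is FPKM, which divides the fragments of a gene by its length and by the library's mapped fragments. The authors normalized it across the 6 libraries of a table, so levels are compared within a table. Between 12439 and 13063 genes reached 1 FPKM in a library. The rank correlation (Spearman) between libraries of a table was 0.984 to 0.991, and no library was a copy of another. The dissections carried the markers of their labels: Htr5b, a serotonin receptor of olive neurons, was at 2.25 to 9.55 FPKM in the inferior olive and at most 0.322 FPKM in the cerebellum, while Gabra6, a GABA receptor subunit of granule cells, was at 215 to 437 FPKM in the cerebellum and 0.268 to 15.3 FPKM in the inferior olive.

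The promoters of genes that move together are shown for the 4 members below, from RefSeq on GRCm38.p6, each read in the direction of the gene from 250 bases before its start to 50 bases after it. Windows were found for 24 of the 32 members, some with several starts, which gave 31 windows. Capitals mark TAATCC, the core recognized by OTX homeodomain proteins, or GGATTA on the other strand, in Abca4 (chr3:122044210-122044509, plus strand), Ace (chr11:105967698-105967997, plus strand) and Otx2 (chr14:48665060-48665359, minus strand), and CCAAT or ATTGG in Msx1 (chr5:37824536-37824835, minus strand), a member that passed a test described further on.
Abca4: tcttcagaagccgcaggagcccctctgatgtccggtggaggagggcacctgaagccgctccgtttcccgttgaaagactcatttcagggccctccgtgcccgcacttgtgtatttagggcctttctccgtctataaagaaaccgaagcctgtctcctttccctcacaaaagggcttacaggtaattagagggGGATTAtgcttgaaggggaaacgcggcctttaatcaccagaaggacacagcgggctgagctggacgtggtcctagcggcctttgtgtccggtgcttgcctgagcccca
Ace: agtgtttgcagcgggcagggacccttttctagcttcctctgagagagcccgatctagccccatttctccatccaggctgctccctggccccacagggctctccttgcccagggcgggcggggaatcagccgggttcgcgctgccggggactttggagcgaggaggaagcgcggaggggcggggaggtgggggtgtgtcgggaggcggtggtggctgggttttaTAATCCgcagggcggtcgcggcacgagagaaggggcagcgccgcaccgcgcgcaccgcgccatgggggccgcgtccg
Otx2: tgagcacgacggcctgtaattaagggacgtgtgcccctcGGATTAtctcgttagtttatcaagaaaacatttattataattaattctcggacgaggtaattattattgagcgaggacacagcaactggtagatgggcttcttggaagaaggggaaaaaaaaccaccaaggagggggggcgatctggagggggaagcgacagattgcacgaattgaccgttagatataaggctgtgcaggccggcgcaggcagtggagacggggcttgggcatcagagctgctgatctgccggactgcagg
Msx1: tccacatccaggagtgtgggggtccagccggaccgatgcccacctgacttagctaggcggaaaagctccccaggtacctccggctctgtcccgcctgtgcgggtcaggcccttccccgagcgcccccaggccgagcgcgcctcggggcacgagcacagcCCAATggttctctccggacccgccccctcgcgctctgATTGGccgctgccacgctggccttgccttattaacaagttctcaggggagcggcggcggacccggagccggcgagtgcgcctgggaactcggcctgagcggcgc
TAATCC was in 3 of the 31 member windows (9.68%) and in 7.06% of all 32851 windows of the table. TAATTA, a homeodomain core that is its own reverse complement, was in 4 windows (12.9%) of Abca4, Cldn1 and Otx2, against 5.29% of all windows. TATAAA was in 7 windows (22.6%) against 13.6%, and CCAAT in 5 windows (16.1%) against 37.4%. These are letters in a window of 300 bases and are given as a description.

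Ttr, transthyretin, the carrier of thyroid hormone and of retinol-binding protein in the cerebrospinal fluid, is the most abundant product of this epithelium, and its level set the range of the data. Ttr was at 17.5, 157 and 5.32 FPKM in the WT libraries and 20.6, 1257 and 1324 FPKM in the mutants of the KI inferior olive at 5 weeks, and at 4309, 834 and 2465 FPKM in the WT libraries and 2571, 1816 and 16.7 FPKM in the mutants at 12 weeks. Ttr was at 641, 630.0 and 1059 FPKM in the WT libraries and 988, 1762 and 3006 FPKM in the mutants of the Tg inferior olive at 5 weeks, and at 3358, 1915 and 827 FPKM in the WT libraries and 1226, 673 and 29.8 FPKM in the mutants at 12 weeks. Within a table the KI olive mutants ran from 20.6 to 1324 FPKM at 5 weeks and from 16.7 to 2571 FPKM at 12 weeks, and in each olive table the ranges of the genotypes overlap. Ttr was at 1014, 364 and 1218 FPKM in the WT libraries and 1624, 900.2 and 252 FPKM in the mutants of the KI cerebellum at 5 weeks, and at 465, 1565 and 413 FPKM in the WT libraries and 8.86, 544 and 1664 FPKM in the mutants at 12 weeks. Ttr was at 1056, 1504 and 711 FPKM in the WT libraries and 1299, 1107 and 12.98 FPKM in the mutants of the Tg cerebellum at 5 weeks, and at 559, 906 and 1267 FPKM in the WT libraries and 1362, 1784 and 1808 FPKM in the mutants at 12 weeks. In 3 of the cerebellum tables the ranges overlap as well, and at 12 weeks in the Tg cerebellum each mutant library is above each WT library. Among the genes of a library Ttr ranked between 1 and 9041. Within a table its highest library exceeded its lowest by 3.23 to 258 times, and in 5 of the 8 tables by over 100 times. In 4 of those 5 tables the lowest library is a mutant, and at 5 weeks in the KI olive it is a WT library.

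**Figure D1:**
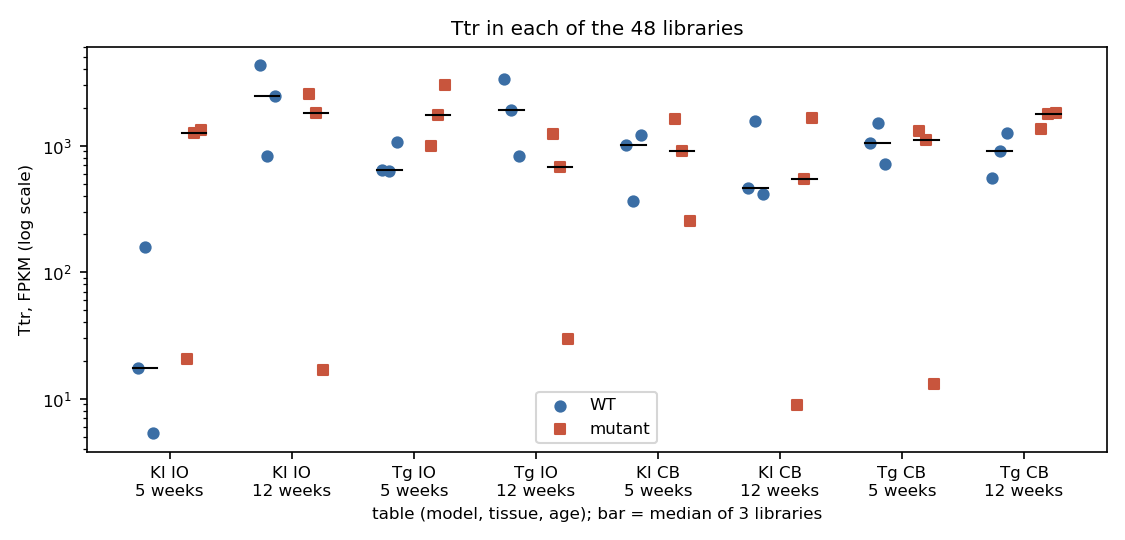
FPKM of Ttr in each of the 48 libraries on a log axis, by table and genotype, each point being 1 library and each bar the median of 3. For the KI model at 12 weeks, 5 inferior olive libraries lie between 834 and 4309 FPKM and 1 mutant lies at 16.7 FPKM.

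The other members moved with Ttr. The filter of a table was a mean of at least 0.5 FPKM in each genotype. Members other than Ttr that passed it were counted, joint entries included. Of 234 pairs of a member and a table, 187 (79.9%) had their highest value in the library where Ttr was highest. In 208 of 234 (88.9%) the lowest value was where Ttr was lowest. Among genes that are no members, the share per table was 10.6% to 27.7% for the highest and 11.9% to 33.0% for the lowest library. In the KI olive at 12 weeks 31 of 31 members peaked with Ttr, and in the Tg olive 30 of 30 did so at both ages. The count was lower in the KI olive at 5 weeks, at 11 of 20, and in the KI cerebellum, at 16 of 31 at 5 weeks and 16 of 30 at 12 weeks. The 2 libraries highest in Ttr were at 1257 and 1324 FPKM in the KI olive at 5 weeks, at 1565 and 1664 FPKM in the KI cerebellum at 12 weeks, and further apart, at 1218 and 1624 FPKM, in the KI cerebellum at 5 weeks.

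A score for each library, the mean log2 difference of the 30 members from the WT mean of their table, gives the spread of the set. It ran from -0.43 to 0.67 in the WT libraries of the KI olive at 5 weeks, where the mutants were at -0.09, 2.49 and 2.53. In the KI olive at 12 weeks the mutants were at 0.18, -0.10 and -3.15 and in the Tg olive at 12 weeks at -0.31, -1.01 and -2.67. A single mutant library also stood lowest in the KI cerebellum at 12 weeks, at -2.28, and in the Tg cerebellum at 5 weeks, at -2.39, while the other mutants of those tables were at -0.30 and 0.82 and at 0.29 and 0.06. Since RNA of whole tissue pieces was measured, fewer epithelial cells and less RNA per cell cannot be told apart.

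**Figure D2:**
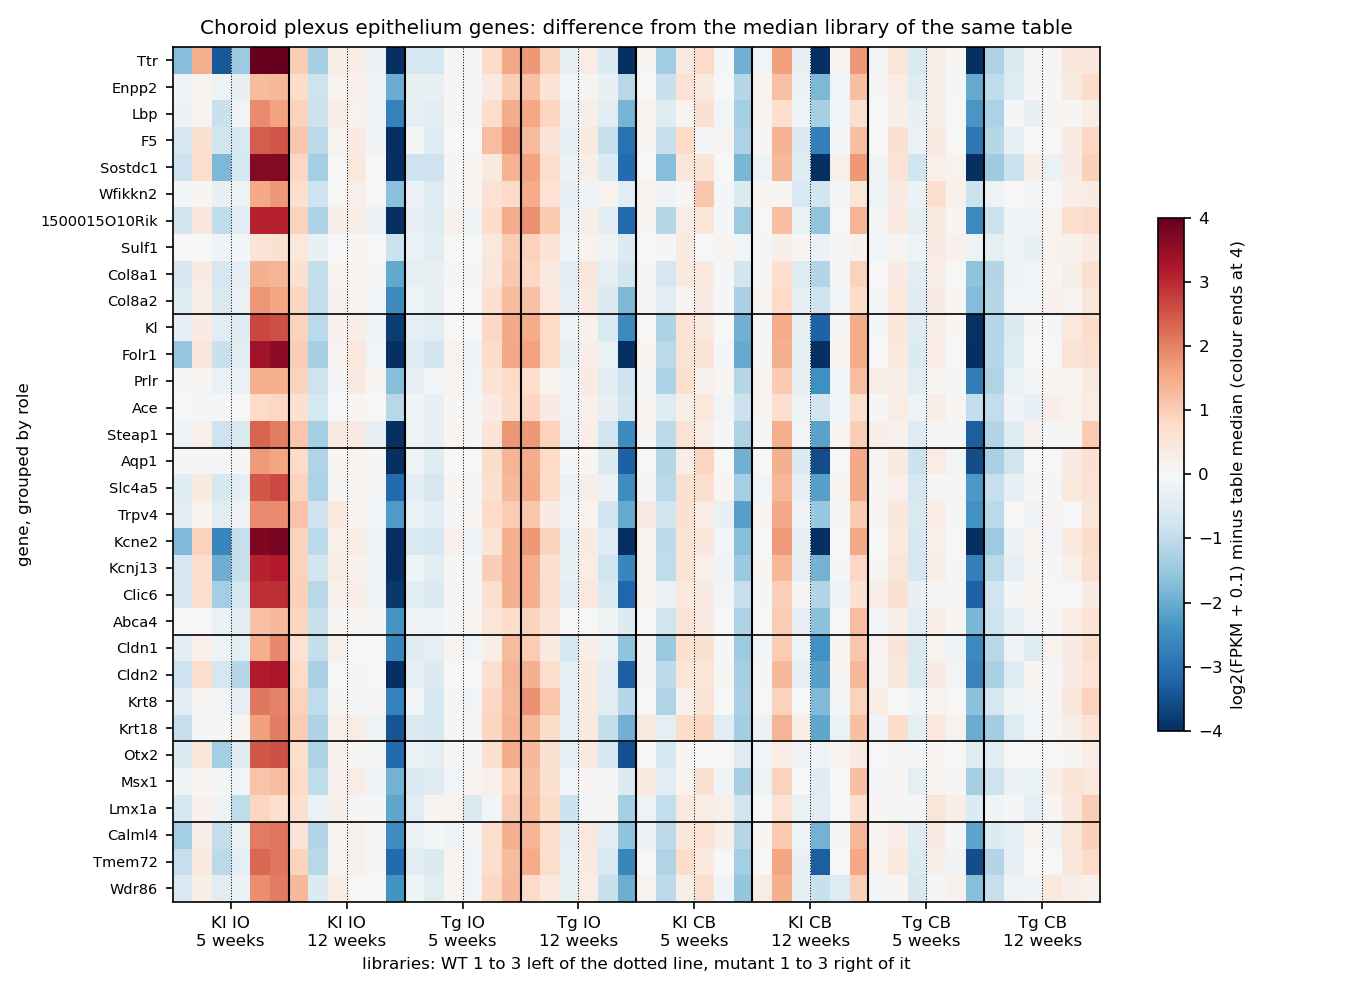
Log2(FPKM + 0.1) of each of the 32 members (vertical axis, by role) minus the median of the 6 libraries of its table, in each of the 48 libraries (horizontal axis, WT then mutant in each table). Most members share the color of their library, and 1 mutant library, with a score of -2.28 to -3.15, is the darkest blue in each of 4 tables.

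Of the secreted and extracellular proteins, Enpp2 (autotaxin, which makes lysophosphatidic acid and is also made by oligodendrocytes) was the most abundant after Ttr, at 146 to 965 FPKM in the olive and 45.3 to 564 FPKM in the cerebellum. Enpp2 was at 203, 241 and 191 FPKM in the WT libraries and 182, 527 and 556 FPKM in the mutants of the KI inferior olive at 5 weeks, and at 965, 325 and 634 FPKM in the WT libraries and 665, 533 and 146 FPKM in the mutants at 12 weeks. Enpp2 was at 359, 361 and 454 FPKM in the WT libraries and 425, 563 and 877 FPKM in the mutants of the Tg inferior olive at 5 weeks, and at 884, 574 and 364 FPKM in the WT libraries and 420.4, 319 and 181 FPKM in the mutants at 12 weeks. In each of these olive tables its highest library is that of Ttr, at a far smaller range. Enpp2 was at 301, 159.7 and 445 FPKM in the WT libraries and 389, 294 and 134 FPKM in the mutants of the KI cerebellum at 5 weeks, and at 168, 358 and 134 FPKM in the WT libraries and 45.3, 147 and 359.9 FPKM in the mutants at 12 weeks. Enpp2 was at 311, 372 and 215 FPKM in the WT libraries and 354, 296 and 74.3 FPKM in the mutants of the Tg cerebellum at 5 weeks, and at 167, 238 and 348 FPKM in the WT libraries and 329.5, 437 and 564 FPKM in the mutants at 12 weeks. Its lowest cerebellar values are those of the mutant libraries at 8.86 and 12.98 FPKM of Ttr. In the 5 tables in which Ttr spans over 100 times, the level left in the library with least Ttr, as a percent of the library with most, separates the members. For Enpp2 it was 15.1% to 34.4% in the 3 olive tables and 12.6% to 19.98% in the 2 cerebellum tables.

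Sostdc1, a secreted antagonist of BMP and Wnt signals, ranged from 0.199 to 26.0 FPKM in the olive and from 0.0343 to 12.5 FPKM in the cerebellum, and kept only 1.28% to 2.72% and 0.743% to 0.865% of its highest level. 1500015O10Rik, which encodes augurin, a secreted peptide precursor, ranged from 1.48 to 87.3 FPKM in the olive and from 3.32 to 40.1 FPKM in the cerebellum, where 12.7% to 12.9% was left. F5, coagulation factor V, kept 1.96% to 7.25% in the olive and 3.85% to 6.30% in the cerebellum. Sostdc1 kept less than F5 and 1500015O10Rik in each of the 5 tables. Lbp, the lipopolysaccharide-binding protein, ranged from 0.514 to 14.8 FPKM in the olive and kept 7.05% to 15.2% there and 15.5% to 23.2% in the cerebellum. Wfikkn2, a secreted protein that binds growth factors of the TGF-beta family, was low at 0.218 to 2.60 FPKM in the olive and kept 37.0% to 38.9% in the cerebellum. Of the type VIII collagen chains, Col8a1 was at 0.891 to 6.65 FPKM and Col8a2 at 0.622 to 9.76 FPKM in the olive, and both rose and fell with Ttr, with 14.8% to 32.7% and 8.50% to 20.2% left.

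Sulf1, an extracellular enzyme that removes 6-O-sulfate groups from heparan sulfate, varied least. Sulf1 was at 4.86, 4.99 and 4.44 FPKM in the WT libraries and 4.81, 7.11 and 7.52 FPKM in the mutants of the KI inferior olive at 5 weeks, and at 10.3, 6.28 and 7.88 FPKM in the WT libraries and 8.16, 7.67 and 4.23 FPKM in the mutants at 12 weeks. Sulf1 was at 3.69, 3.302 and 4.41 FPKM in the WT libraries and 4.44, 6.003 and 8.95 FPKM in the mutants of the Tg inferior olive at 5 weeks, and at 8.04, 6.13 and 3.68 FPKM in the WT libraries and 4.61, 3.76 and 2.8004 FPKM in the mutants at 12 weeks. The highest and lowest of these olive libraries are those of Ttr in the tables at 12 weeks, at a much smaller range. Sulf1 was at 9.0999, 8.54 and 11.7 FPKM in the WT libraries and 8.73, 9.54 and 8.21 FPKM in the mutants of the KI cerebellum at 5 weeks, and at 9.11, 11.6 and 10.2 FPKM in the WT libraries and 8.25, 9.25 and 11.02 FPKM in the mutants at 12 weeks. Sulf1 was at 6.81, 7.94 and 6.37 FPKM in the WT libraries and 9.21, 8.36 and 6.41 FPKM in the mutants of the Tg cerebellum at 5 weeks, and at 8.98, 10.6 and 9.51 FPKM in the WT libraries and 12.8, 13.2 and 14.6 FPKM in the mutants at 12 weeks. Its largest fold within a table was 2.87, and 74.8% to 80.7% of its level was left in the cerebellum libraries with least Ttr.

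Among receptors and membrane enzymes, Kl (Klotho, the co-receptor of fibroblast growth factor 23) was the most abundant. Kl was at 2.101, 3.32 and 1.903 FPKM in the WT libraries and 1.86, 17.3 and 16.4 FPKM in the mutants of the KI inferior olive at 5 weeks, and at 49.1, 12.2 and 28.96 FPKM in the WT libraries and 30.1, 22.8 and 1.76 FPKM in the mutants at 12 weeks. Kl was at 7.69, 7.18 and 10.01 FPKM in the WT libraries and 9.69, 17.7 and 28.5 FPKM in the mutants of the Tg inferior olive at 5 weeks, and at 34.4, 21.3 and 10.8 FPKM in the WT libraries and 13.6, 7.95 and 1.99 FPKM in the mutants at 12 weeks. The mutant libraries of both models at 12 weeks include the lowest value of their table, and the WT libraries the highest, with the others between and mixed. Kl was at 10.9, 4.52 and 16.2 FPKM in the WT libraries and 14.03, 10.6 and 2.74 FPKM in the mutants of the KI cerebellum at 5 weeks, and at 5.55, 16.2 and 4.52 FPKM in the WT libraries and 0.5095, 5.81 and 15.9 FPKM in the mutants at 12 weeks. Kl was at 9.54, 13.3 and 6.81 FPKM in the WT libraries and 11.8, 10.03 and 0.543 FPKM in the mutants of the Tg cerebellum at 5 weeks, and at 6.35, 9.83 and 14.6 FPKM in the WT libraries and 13.9, 19.2 and 23.7 FPKM in the mutants at 12 weeks. Folr1, the folate receptor alpha that moves folate into the fluid, ranged from 0.183 to 30.7 FPKM in the olive and 0.112 to 14.1 FPKM in the cerebellum, a fold of up to 136 within a table, and kept 0.735% to 3.51% and 1.11% to 3.72%. Steap1, a membrane protein of the STEAP family, kept 1.34% to 9.77% in the olive. Prlr, the prolactin receptor, kept 15.9% to 33.9% in the olive and 5.34% to 8.24% in the cerebellum. Ace, the angiotensin-converting enzyme, which endothelial cells also make, had a largest fold of 3.31 and kept 30.2% to 54.2% in the olive and 37.4% to 40.1% in the cerebellum.

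Clic6, of the chloride intracellular channel family, had the highest mean of the channels and transporters in the olive. Clic6 was at 0.738, 1.94 and 0.413 FPKM in the WT libraries and 0.709, 10.04 and 10.04 FPKM in the mutants of the KI inferior olive at 5 weeks, and at 31.6, 7.41 and 18.04 FPKM in the WT libraries and 19.5, 14.5 and 1.02 FPKM in the mutants at 12 weeks. Clic6 was at 5.44, 4.92 and 7.52 FPKM in the WT libraries and 7.05, 11.3 and 19.6 FPKM in the mutants of the Tg inferior olive at 5 weeks, and at 24.2, 14.5 and 6.52 FPKM in the WT libraries and 11.95, 5.84 and 0.889 FPKM in the mutants at 12 weeks. The library that is highest in each of the tables at 12 weeks, and the one that is lowest, are those of Ttr and Kl. Clic6 was at 14.3, 11.2 and 17.9 FPKM in the WT libraries and 16.6, 12.3 and 6.94 FPKM in the mutants of the KI cerebellum at 5 weeks, and at 10.4, 20.8 and 11.1 FPKM in the WT libraries and 4.71, 9.401 and 16.3 FPKM in the mutants at 12 weeks. Clic6 was at 10.4, 12.9 and 6.92 FPKM in the WT libraries and 8.84, 8.21 and 0.815 FPKM in the mutants of the Tg cerebellum at 5 weeks, and at 7.61, 12.7 and 13.8 FPKM in the WT libraries and 12.8, 13.2 and 16.3 FPKM in the mutants at 12 weeks. The cerebellar values are those of the joint entry. Kcne2, the beta subunit of potassium channels, ranged from 0.0635 to 36.6 FPKM in the olive and 0.107 to 15.3 FPKM in the cerebellum and kept among the smallest shares in the olive, 0.455% to 0.832%, with a fold of 220 in the KI olive at 5 weeks. Kcnj13, the inward rectifier Kir7.1, ranged from 0.225 to 30.5 FPKM in the olive and from 1.28 to 18.0 FPKM in the cerebellum. Aqp1, the water channel of the ventricular face, and Slc4a5, a sodium bicarbonate cotransporter, reached 11.3 and 12.3 FPKM in the olive. Trpv4, a calcium-permeable osmosensitive channel, ranged from 0.349 to 7.29 FPKM there, and Abca4, a transporter of retinoids, from 0.606 to 6.49 FPKM.

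The tight junction and keratin genes were present at a few FPKM. Cldn2 was at 0.131, 0.571 and 0.1503 FPKM in the WT libraries and 0.0864, 3.61 and 3.87 FPKM in the mutants of the KI inferior olive at 5 weeks, and at 9.51, 2.18 and 5.53 FPKM in the WT libraries and 5.61, 5.36 and 0.104 FPKM in the mutants at 12 weeks. Cldn2 was at 1.61, 1.44 and 2.16 FPKM in the WT libraries and 2.14, 3.38 and 5.61 FPKM in the mutants of the Tg inferior olive at 5 weeks, and at 6.18, 3.69 and 1.72 FPKM in the WT libraries and 2.93, 1.63 and 0.142 FPKM in the mutants at 12 weeks. Claudin 2, which forms pores for cations and water in leaky epithelia, was thus below 0.6 FPKM in the 4 KI olive libraries with least Ttr at 5 weeks. Cldn2 was at 2.75, 1.32 and 3.97 FPKM in the WT libraries and 3.98, 2.91 and 1.08 FPKM in the mutants of the KI cerebellum at 5 weeks, and at 1.45, 3.82 and 1.16 FPKM in the WT libraries and 0.258, 1.55 and 3.91 FPKM in the mutants at 12 weeks. Cldn2 was at 2.54, 3.32 and 1.52 FPKM in the WT libraries and 3.003, 2.22 and 0.2903 FPKM in the mutants of the Tg cerebellum at 5 weeks, and at 1.07, 1.91 and 2.89 FPKM in the WT libraries and 2.62, 3.44 and 4.17 FPKM in the mutants at 12 weeks. Cldn1, the sealing claudin 1, kept 9.27% to 20.5% in the olive and 4.11% to 8.04% in the cerebellum. Krt8 and Krt18, the keratin pair of simple epithelia, ranged from 0.0666 to 2.69 FPKM and from 0.0885 to 6.11 FPKM in the olive. Krt8 passed the filter in 4 of the 8 tables only.

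Otx2, a homeodomain factor needed for choroid plexus development and also made by cerebellar granule cells of the posterior lobules, differed between the tissues in what was left. Otx2 was at 0.323, 0.763 and 0.1404 FPKM in the WT libraries and 0.347, 3.35 and 3.498 FPKM in the mutants of the KI inferior olive at 5 weeks, and at 9.198, 2.31 and 6.34 FPKM in the WT libraries and 5.82, 5.41 and 0.558 FPKM in the mutants at 12 weeks. Otx2 was at 1.895, 1.76 and 2.35 FPKM in the WT libraries and 2.23, 3.62 and 6.53 FPKM in the mutants of the Tg inferior olive at 5 weeks, and at 7.59, 4.74 and 2.31 FPKM in the WT libraries and 4.02, 1.92 and 0.174 FPKM in the mutants at 12 weeks. In the olive it fell to 2.29% to 6.07% of its highest level in the library with least Ttr. Otx2 was at 8.64, 5.33 and 9.34 FPKM in the WT libraries and 8.86, 8.89 and 6.21 FPKM in the mutants of the KI cerebellum at 5 weeks, and at 6.71, 9.05 and 6.65 FPKM in the WT libraries and 6.39, 7.99 and 9.498 FPKM in the mutants at 12 weeks. Otx2 was at 8.46, 8.89 and 7.78 FPKM in the WT libraries and 8.82, 8.12 and 5.85 FPKM in the mutants of the Tg cerebellum at 5 weeks, and at 7.42, 9.802 and 9.8004 FPKM in the WT libraries and 10.1, 10.4 and 12.1 FPKM in the mutants at 12 weeks. In the cerebellum 65.8% to 67.2% was left, and its lowest value of all 24 libraries was 5.33 FPKM.

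Msx1 was at 0.572, 0.692 and 0.618 FPKM in the WT libraries and 0.604, 1.55 and 1.69 FPKM in the mutants of the KI inferior olive at 5 weeks, and at 4.67, 1.24 and 2.94 FPKM in the WT libraries and 3.26, 2.33 and 0.628 FPKM in the mutants at 12 weeks. Msx1 was at 1.13, 1.23 and 1.64 FPKM in the WT libraries and 1.904, 2.03 and 3.297 FPKM in the mutants of the Tg inferior olive at 5 weeks, and at 3.16, 2.08 and 1.22 FPKM in the WT libraries and 1.404, 1.23 and 0.871 FPKM in the mutants at 12 weeks. Msx1 is a homeodomain factor of the dorsal midline that is kept in the adult plexus, and it was at most 4.67 FPKM. Msx1 was at 1.54, 0.866 and 1.33 FPKM in the WT libraries and 1.86, 1.07 and 0.414 FPKM in the mutants of the KI cerebellum at 5 weeks, and at 0.683, 1.61 and 0.798 FPKM in the WT libraries and 0.545, 0.824 and 2.02 FPKM in the mutants at 12 weeks. Msx1 was at 1.56, 1.72 and 1.197 FPKM in the WT libraries and 1.704, 1.68 and 0.584 FPKM in the mutants of the Tg cerebellum at 5 weeks, and at 0.716, 1.14 and 1.12 FPKM in the WT libraries and 1.602, 1.96 and 1.85 FPKM in the mutants at 12 weeks. In the libraries with least Ttr it kept 13.4% to 36.5% in the olive and 27.0% to 33.9% in the cerebellum. Lmx1a, a factor of the roof plate that unipolar brush cells also make, ranged from 0.0889 to 2.07 FPKM in the olive and kept 39.1% to 68.7% in the cerebellum.

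Of the remaining members, Calml4, a calmodulin-like protein, was the most abundant. Calml4 was at 0.865, 2.87 and 1.19 FPKM in the WT libraries and 1.99, 10.5 and 10.9 FPKM in the mutants of the KI inferior olive at 5 weeks, and at 15.99, 4.87 and 11.6 FPKM in the WT libraries and 12.4, 10.7 and 1.91 FPKM in the mutants at 12 weeks. Calml4 was at 5.51, 6.35 and 5.88 FPKM in the WT libraries and 6.92, 10.8 and 17.9 FPKM in the mutants of the Tg inferior olive at 5 weeks, and at 18.2, 11.3 and 5.17 FPKM in the WT libraries and 9.29, 5.22 and 2.23 FPKM in the mutants at 12 weeks. The mutant library with 29.8 FPKM of Ttr was again the lowest of its table. Calml4 was at 5.29, 2.98 and 8.53 FPKM in the WT libraries and 9.25, 7.29 and 2.75 FPKM in the mutants of the KI cerebellum at 5 weeks, and at 3.61, 7.13 and 3.03 FPKM in the WT libraries and 0.857, 3.28 and 8.78 FPKM in the mutants at 12 weeks. Calml4 was at 8.402, 9.51 and 5.49 FPKM in the WT libraries and 9.86, 7.39 and 1.76 FPKM in the mutants of the Tg cerebellum at 5 weeks, and at 5.29, 5.901 and 8.61 FPKM in the WT libraries and 7.02, 10.8 and 15.3 FPKM in the mutants at 12 weeks. Tmem72, a transmembrane protein, ranged from 0.206 to 8.88 FPKM in the olive and from 0.0135 to 3.88 FPKM in the cerebellum, a fold of 237 in the KI cerebellum at 12 weeks. Wdr86, a WD repeat protein, ranged from 0.127 to 5.18 FPKM in the olive. Over the 31 members other than Ttr, 12 to 23 fell under 10% of their highest level in a table and 2 to 7 stayed above 30%, the latter including Sulf1 in each of the 5 tables.

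**Figure D3:**
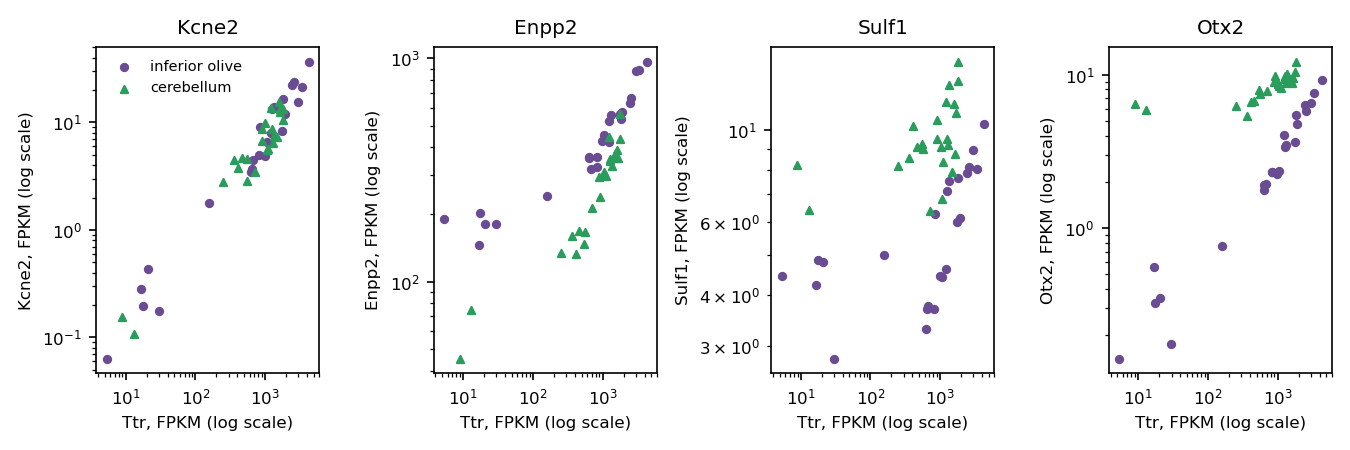
FPKM of Kcne2, Enpp2, Sulf1 and Otx2 (1 panel each) against FPKM of Ttr in the 48 libraries, both on log axes, with the tissues marked, each point being 1 library. The tables are on different scales and are drawn together to show range only, with Kcne2 falling below 1% of its highest level in the olive and Otx2 staying at 5.33 FPKM or more in the cerebellum.

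The genotypes of a table were compared by limma on log2(FPKM + 0.1) over all genes that passed the filter, and a gene whose adjusted p was below 0.05 is said to be called. With 3 libraries against 3, the smallest p an exact permutation test allows for 1 gene is 0.1. All 32 members were tested in the KI olive at 12 weeks, in the cerebellum at 5 weeks in both models and in the Tg cerebellum at 12 weeks. There were 31 in the KI cerebellum at 12 weeks and in the Tg olive at both ages, where Krt8 fell under the filter, and 21 in the KI olive at 5 weeks. In 7 of the 8 tables no member was called, with the smallest adjusted p between 0.471 and 0.999 (limma).

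In the inferior olive the members lay on opposite sides of the WT controls at the 2 ages. At 5 weeks 21 of 21 tested members were higher in the KI mutants, with a median log2 fold change of 1.46 beside -0.01 over all genes, and 31 of 31 in the Tg mutants, with a median of 0.90 beside 0.00. None was called, where 0.0145% and 0.0% of all genes were. At an unadjusted p below 0.05 there were 13 of 21 (5.99% of all genes) and 29 of 31 (6.57%). The members rose and fell together from library to library. Here and in the comparisons below, counts of members are therefore not independent observations of the genotype. Ttr had a log2 fold change of 3.72 in the KI and 1.20 in the Tg olive, with adjusted p of 0.842 and 0.604 (limma). The libraries of the genotypes did not overlap for 1 member in the KI olive, the jointly listed Aqp1 (5.27% of all genes had all mutants above), and for 11 of 31 in the Tg olive (5.95%), which were Sostdc1, Wfikkn2, Sulf1, Col8a1, Col8a2, Aqp1, Trpv4, Abca4, Krt18, Msx1 and Calml4. No member had all mutants below all WT libraries (6.66% and 6.02% of all genes did). Trpv4, for example, was at WT levels of 1.24 ± 0.184 FPKM and mutant levels of 2.47 ± 0.803 FPKM (SD, n = 3), which is 0.89 on the log2 scale with an adjusted p of 0.588 (limma). In the KI olive 1 mutant library had as little of the members as the WT libraries. Without it 8 members were called (Enpp2, 1500015O10Rik, Kl, Prlr, Ace, Aqp1, Trpv4 and Abca4), where 0.131% of all genes were. That library is picked out by its levels of these same genes, so this count is a description only. Over omissions of each library in turn the count was 0 to 8.

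At 12 weeks 32 of 32 members were lower in the KI mutants, with a median of -0.98, and 31 of 31 in the Tg mutants, with a median of -1.42. None was called, where 1.49% and 0.0% of all genes were, and at an unadjusted p below 0.05 there were 0 of 32 (13.3% of all genes) and 10 of 31 (3.43%). Ttr had a log2 fold change of -2.27 in the KI and -2.58 in the Tg olive. Without the mutant library at 16.7 FPKM of Ttr the KI value of Ttr was 0.06 and the median of the members 0.05, so that direction rested on 1 library. In these KI libraries 8 of 8 ependymal genes were lower (median -0.37, 0 called), with sums of 26.5 to 37.1 FPKM in the WT libraries and 18.4 to 30.3 FPKM in the mutants. All 8 oligodendrocyte genes were lower with 1 called, with sums of 6247 to 6616 and 5720 to 5903 FPKM, and 5 of 5 genes of olive neurons were lower with 4 called, with sums of 60.4 to 65.9 and 29.6 to 35.5 FPKM. Of 21 tested genes in a further list of choroid plexus genes 20 were lower, with 0 called. Purkinje cell and granule cell genes were each lower in 6 of 7, with 1 called in each list. Other lists went the other way, with 13 of 15 leptomeningeal fibroblast and 7 of 9 endothelial genes higher and 0 called. The part of these lists in the result was not tested. Without the mutant at 29.8 FPKM, the Tg value of Ttr was -0.94. No member had all mutants below all WT libraries (10.8% and 4.05% of all genes did) or all above (8.38% and 3.54%). In the Tg olive at 12 weeks same-numbered libraries deviated together (correlations of 0.25, 0.11 and 0.26), and the numbers were taken as pairs. The labels do not say what the numbers stand for. Ttr fell with rising replicate number in both genotypes, so the block takes up part of its spread. With the replicate as a block limma called 4 members with adjusted p from 0.0162 to 0.0333. These were Enpp2 at -0.98, Lbp at -1.42, Ace at -0.62 and Calml4 at -1.08. They are the 4 genes called of 13887 (0.0288%), in a fit with 2 residual degrees of freedom.

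In the cerebellum 26 of 32 members were lower in the KI mutants at 5 weeks, with a median of -0.13, and 28 of 31 were lower at 12 weeks, with a median of -0.58. In the Tg cerebellum 29 of 32 were lower at 5 weeks, with a median of -0.69. No member was called in these comparisons, where 0.0074%, 5.58% and 4.1% of all genes were, and no member had an unadjusted p below 0.05 in any of them (3.65%, 24.4% and 14.5% of all genes). The genotypes overlapped for each member, where 4.29%, 17.1% and 7.64% of all genes had all mutants above and 5.24%, 15.0% and 12.5% all below. Without the mutant library at 8.86 FPKM of Ttr the median in the KI cerebellum at 12 weeks was 0.30, and without the mutant at 12.98 FPKM that in the Tg cerebellum at 5 weeks was 0.17.

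The Tg cerebellum at 12 weeks was the exception. There 32 of 32 members were higher in the mutants, with a median log2 fold change of 0.81 beside -0.02 over all genes, and 25 had an unadjusted p below 0.05 (23.4% of all genes). Sulf1 and Msx1 were called, which is 2 of 32 members and a share below the 7.51% of all genes called. Sulf1 (chr1:12692101-12861161, the deposited locus on mm10) was at 8.98, 10.6 and 9.51 FPKM in the WT libraries and 12.8, 13.2 and 14.6 FPKM in the mutants, and rose by a log2 value of 0.48 ± 0.0825 (SE), with an adjusted p of 0.0139 (limma). Msx1 (chr5:37820491-37824585) was at 0.716, 1.14 and 1.12 FPKM and at 1.60, 1.96 and 1.85 FPKM, and rose by 0.82 ± 0.192 (SE), with an adjusted p of 0.0421. In both genes the mutants are all above the WT libraries. Those next in order were 1500015O10Rik at 0.90 (adjusted p 0.0510), Cldn1 at 0.96 (0.0613), Ace at 0.72 (0.0643), Folr1 at 0.97 (0.0772) and Ttr at 0.92 (0.0859). In 19 of 32 members the genotypes did not overlap (12.2% of all genes had all mutants above). These counts too are of genes that vary together. The call of Msx1 was lost without any one library, with adjusted p from 0.0502 to 0.147, and that of Sulf1 without the first WT library, at 0.0558. The count of called members was 1 without the first WT library (3.19% of all genes) or without the second or the third mutant (3.44% and 3.86%), and 9 without the third WT library (7.19%).

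Genes of other cell types also differed between the genotypes of this table. All 15 leptomeningeal fibroblast genes were higher in the mutants, with 3 called (Col1a1, Col1a2 and Fmod) and a summed level of 1203 to 1683 FPKM in the WT libraries and 1742 to 1983 FPKM in the mutants. Of 21 tested genes in a further list of choroid plexus genes, 18 were higher and 3 called (Slc13a4, Igfbp2 and Spint2), with sums of 389 to 479 and 489 to 602 FPKM. Ependymal genes summed to 29.1 to 38.3 and 37.5 to 46.7 FPKM, with 7 of 8 higher and Tmem212 and Ak7 called, and 8 of 8 oligodendrocyte genes were higher with 0 called. Pituitary genes summed to 4.68 to 12.1 FPKM in the WT libraries and 2.34 to 813 FPKM in the mutants. Purkinje cell genes were lower, 7 of 7 and all called, with sums of 2141 to 2689 and 984 to 1090 FPKM. Granule cell genes were at lower levels in 7 of 7, with 3 called and sums of 1467 to 1744 and 1224 to 1362 FPKM, and those of unipolar brush cells in 5 of 6, with 5 called and sums of 354 to 389 and 253 to 261 FPKM. The part of these in the result was not tested. In the Tg olive at 5 weeks, 15 of 15 leptomeningeal genes were higher with 0 called, with sums of 973 to 1047 and 944 to 1403 FPKM. There 20 of 21 further choroid plexus genes and 7 of 7 granule cell genes were also higher, with 0 called. Granule cell genes summed to 76.1 to 84.3 and 74.3 to 137 FPKM, and pituitary genes to 1.90 to 10.1 and 3.09 to 132 FPKM. Ependymal and oligodendrocyte genes were each higher in 4 of 8, and endothelial genes lower in 6 of 9. The part of these lists was not tested either.

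**Figure D4:**
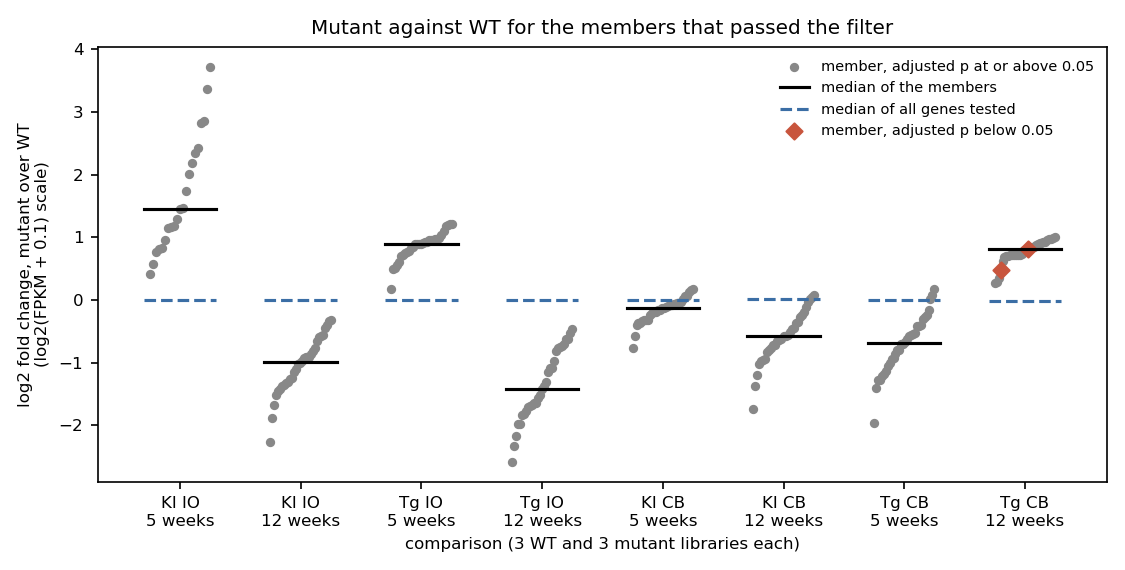
Mutant over WT on the log2(FPKM + 0.1) scale for each tested member (points, sorted within each of the 8 tables, diamonds for called members), with the median of the members (solid bar) and of all genes tested (dashed bar). Members are on the side of higher values in the olive at 5 weeks in both models and in the Tg cerebellum at 12 weeks, and on the other side in the olive at 12 weeks.

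Whether the difference between genotypes changed with age was tested by an interaction term over 12 libraries. In the Tg olive it was lower at 12 weeks for 31 of 31 members, with a median of -2.48, 29 at an unadjusted p below 0.05 and 0 called (0.0% of all genes), the smallest adjusted p being 0.627 (limma). With the replicate as a block 20 members were called in this term (0.384% of all genes), all of them lower, with adjusted p from 0.0189 (limma). That block also paired the libraries at 5 weeks by number. Their deviations correlated at 0.27, -0.22 and 0.20, which did not meet the rule for pairing, so these calls rest partly on arbitrary pairs. In the KI olive it was lower for 20 of 20, with a median of -2.47, 7 at an unadjusted p below 0.05 and 0 called (0.0%). In the Tg cerebellum the age term was higher for 32 of 32, with a median of 1.46, 4 at an unadjusted p below 0.05 (Ace, Cldn1, Krt8 and Msx1) and 0 called (0.131%), and in the KI cerebellum 26 of 31 were lower with 0 called (0.0%). Between the models, at 12 weeks in the cerebellum, the difference was higher in the Tg model for 31 of 31 members, with a median of 1.33, and 1 was called, Sulf1, at 0.60 ± 0.158 (SE) with an adjusted p of 0.0320 (limma), where 11.7% of all genes were called. It was lost without each of 8 of the 12 libraries in turn: WT libraries 1 and 3 and mutants 2 and 3 of the Tg table, and WT libraries 2 and 3 and mutants 1 and 2 of the KI table. The other model comparisons called 0 members (0.0152%, 0.212% and 0.862% of all genes). The age and model comparisons share libraries with each other and with the comparisons within tables.

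The members also served as a measure of the plexus in a library. With the score as a covariate, leaving out the member tested, each member is measured against the mean of the others, which centres the set by construction, so the balance of directions is a description only. Here 12 of 21 were higher in the KI olive at 5 weeks with a median of 0.06, 17 of 32 at 12 weeks with 0.03 (1.82% of all genes called), 16 of 31 in the Tg olive at 5 weeks with 0.04 and 16 of 31 at 12 weeks with 0.00, none of them called. In the KI cerebellum 16 of 32 were higher at 5 weeks and 15 of 31 at 12 weeks, with 0 called. In the Tg cerebellum at 12 weeks 14 of 32 were higher and 0 were called (1.23% of all genes), with Sulf1 at 0.33 and an adjusted p of 0.380 and Msx1 at 0.36 and 0.658 (limma). In the Tg cerebellum at 5 weeks 2 members were called (4.15% of all genes), Sulf1 at 0.30 ± 0.0677 (SE, adjusted p 0.0463) and the joint entry of Clic6 at -0.42 ± 0.0687 (0.0092). Over all genes, 209 were called without and 254 with the score in the KI olive at 12 weeks, 182 of them in both, and 552 and 559 in the Tg cerebellum at 5 weeks, 485 in both. The fit with the score leaves 3 residual degrees of freedom, and what changed the counts was not tested. In the KI cerebellum at 12 weeks 749 and 294 (2.19%) were called, 289 in both. In the Tg cerebellum at 12 weeks 1025 and 168 were called, 164 in both. In this last table all mutant scores (0.50 to 1.06) are above all WT scores (-0.53 to 0.37), so the score and the genotype cannot be told apart there.

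Relative to Ttr, the members were not in the same ratio in all tables. A straight line of each member on Ttr, fitted within a table, rose in all 8 tables for all 31 other members. The slope is given in FPKM of the member per 1000 FPKM of Ttr. For 7 of the 29 members with their own entries the 4 C57BL/6J tables were all above the 4 FVB/NJ tables: Sostdc1 (6.06 to 9.99 against 2.44 to 3.48), Kcne2 (7.90 to 10.5 against 4.90 to 6.88), 1500015O10Rik (19.8 to 25.3 against 14.2 to 16.05), Abca4, Prlr, Trpv4 and Slc4a5. The ratio of the median slopes was 2.35 for Sostdc1, 1.73 for Abca4, 1.56 for Prlr, 1.53 for Kcne2 and Trpv4, 1.40 for 1500015O10Rik and 1.20 for Slc4a5. Lbp was the reverse, at 1.57 to 2.41 in C57BL/6J and 3.79 to 4.31 in FVB/NJ, a ratio of 1.89, and for 21 members the strains overlapped. Among 326 genes that are no members and rise with Ttr in all tables, 0.307% separated the first way and 0.92% the second. Those genes were chosen by the sign of the slope alone and were not matched to the members in steepness or fit. Their shares are thus a description only. Each slope rests on 6 libraries, the strain is also the model, and the tables were normalized separately, which scales a member and Ttr alike.

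**Figure D5:**
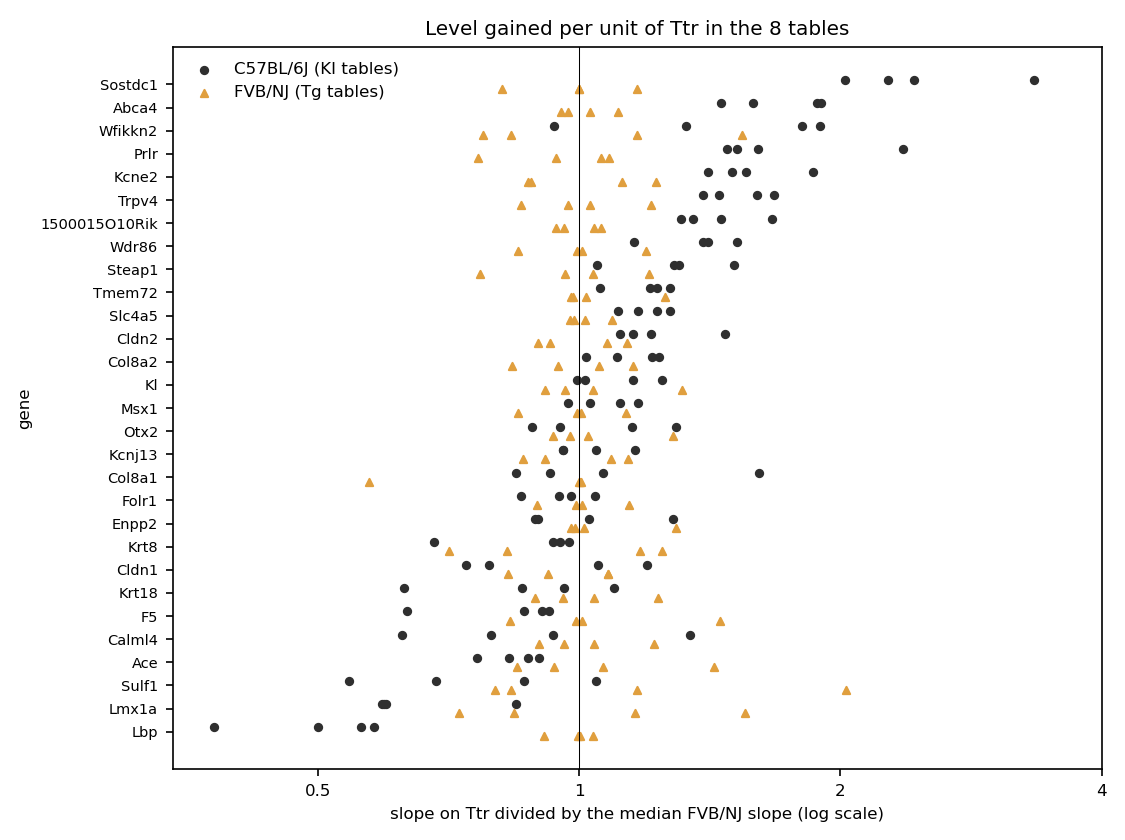
Slope on Ttr of each of the 29 members with their own entries (vertical axis), divided by its median FVB/NJ slope (horizontal log axis), each point being 1 of the 4 C57BL/6J (circles) or 4 FVB/NJ (triangles) tables. The C57BL/6J points of Sostdc1, with a ratio of medians of 2.35, lie to the right of the FVB/NJ points, and those of Lbp to the left.

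Other genes with the same pattern were named by the Pearson correlation, over the 24 libraries of a tissue, of a gene's deviations from the mean of its genotype, age and model with those of the score. The libraries share 8 group means, which leaves 16 degrees of freedom, and no test was made. All 30 members were above 0.7 in both tissues, from 0.89 (Sulf1) in the olive and 0.83 (Sulf1) in the cerebellum. Genes that are no members were counted where their mean was at least 0.5 FPKM in each table of the tissue. Of these, 262 of 12780 (2.05%) were above 0.7 in the olive and 148 of 12427 (1.19%) in the cerebellum. Among the 12 highest in the olive outside the lists of plexus genes were Prr32 (0.99), Ccdc135 (0.99), Slc2a12 (0.96, a glucose transporter), Msx1os (0.95), Mdfic (0.95), Atp7a (0.95, a copper transporter), Mlf1 (0.93), Sgms2 (0.93, a sphingomyelin synthase), Col9a3 (0.92), Npr3 (0.92, the natriuretic peptide clearance receptor) and Aass (0.92, an enzyme of lysine breakdown). In the cerebellum 8 of these 11 were above 0.8, and Atp7a was at 0.66, Col9a3 at 0.64 and Aass at 0.31. Msx1os is the antisense partner of Msx1, and reads of the pair cannot be told apart where strand was not used.

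Ccdc135 was at 1.58, 2.202 and 2.61 FPKM in the WT libraries and 3.30, 3.67 and 5.02 FPKM in the mutants of the Tg cerebellum at 12 weeks, and Slc2a12 at 1.89, 2.503 and 2.95 FPKM and at 3.55, 4.19 and 5.40 FPKM. Both rose, by 0.88 and 0.82 on the log2 scale (adjusted p 0.0441 for each, limma). Called genes were counted here if they are no members and had a mean of at least 0.5 FPKM in each table of their tissue. Of those called in that table, 21 of 966 (2.17%) were above 0.7 in the cerebellum. The count was 3 of 709 (0.423%) in the KI cerebellum at 12 weeks and 1 of 523 (0.191%) in the Tg cerebellum at 5 weeks. In the KI olive at 12 weeks it was 0 of 192, by the correlation in the olive.

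Lists of other cell types differed in this measure. Of the further choroid plexus genes, 19 of 23 were above 0.7 in the olive and 18 of 24 in the cerebellum, with Car12, a carbonic anhydrase, at 0.99 and 0.95 and the most abundant, Vat1l and Igfbp2, at 0.85 and 0.85 in the olive. Of 8 ependymal genes, 5 were above 0.7 in the olive and 2 in the cerebellum. Rsph1, a protein of motile cilia, was at 0.91 and 0.86, and the most abundant, Rarres2 and Mia, were at 0.59 and 0.76 in the olive. Mia is also among the further choroid plexus genes and is counted in both lists. Of 15 leptomeningeal genes only Lum was above, at 0.72 in the olive, and the most abundant, Ptgds and Mgp, were at -0.07 and 0.17. No endothelial (Itm2a 0.16, Ly6c1 0.15), pituitary (Gh -0.31, Prl -0.37), oligodendrocyte (Mbp -0.23), olive neuron (Calb1 0.18, Crh -0.03), Purkinje cell (Pvalb 0.09), granule cell (Cbln1 0.00, Gabra6 0.27) or reference gene (Snap25 0.06, Gapdh -0.35) reached 0.7 in either tissue, the values being those of the olive. Of the unipolar brush cell genes (Calb2 -0.30, Plcb4 0.12) only Lmx1a, itself a member, did.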

How the data were processed

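Poly-A RNA libraries of inferior olive and cerebellum from male Atxn1 154Q/2Q KI mice (C57BL/6J), ATXN1-82Q Tg mice (FVB/NJ) and their WT controls, 3 per genotype, tissue and age, were paired-end sequenced. The authors aligned reads to mm10 with TopHat2 (2.1.0) and deposited FPKM values computed with Cufflinks (2.2.1) and normalized by Cuffnorm within each table of 6 libraries. Group means and the results of Cuffdiff (log2 fold changes, p-values, q-values), also deposited there by the authors, were not used. Depth in fragments is unknown. From the lowest values, the ratio of the deepest to the shallowest library of a table was 1.149 to 1.919. Entries without a symbol, 9.16% to 13.1% per table, were left out. That replicates are separate animals is taken from their labels as replicates, and p-values measure the spread between these libraries.

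Mutants and WT controls were compared within a table with limma 3.58.1 in R 4.3.3 (empirical Bayes with trend) on log2(FPKM + 0.1), which understates the fold of low genes, over genes with a symbol and a mean of at least 0.5 FPKM in each genotype, with Benjamini-Hochberg adjustment over all of them. Interactions used 12 libraries of 2 tables. Other values were computed in Python 3.11.15 with numpy 2.4.6 and pandas 2.3.3. The method was tested on simulated data. The 32 members, the marker lists and the tests were chosen with earlier results of these data known. Values in every library are given for Ttr, Enpp2, the member of each role with the highest olive mean and the called members. From outside the set, the 12 genes of at least 1 FPKM in each olive table most correlated with the score, the 2 most abundant genes of each list, and genes called within a list were named, with those chosen after their values were seen being the called list genes, Car12, Rsph1 and Lum. Of the genes so chosen, 2 are not reported here. Replicate numbers were taken to pair libraries where each same-numbered pair had correlated deviations above 0.1, which held only in the Tg inferior olive at 12 weeks (0.25, 0.11 and 0.26). Alternatives were pseudocounts of 0.01 and 1, no filter, a filter over all libraries, no trend, median centring, the score as covariate, the replicate block and leaving out each library. Promoter windows are RefSeq's on GRCm38.p6.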

Additional observations from a re-analysis of the deposited data

Results flagged for a closer look

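The genotype difference of Sulf1 in the cerebellum at 12 weeks differed between the models by a log2 value of 0.60 (Tg minus KI, SE 0.158, adjusted p 0.0320 by the limma interaction term). Within tables the log2 difference of mutants from WT controls was 0.48 in the Tg and -0.12 in the KI model. Each Tg mutant library was above each Tg WT library, and the KI genotypes overlapped. Sulf1 was the 1 member called of 31 in this term, where 11.7% of all genes were called. Leaving out a library gave 0 to 1 called members. Model, strain and table cannot be told apart, and the mean of the other members differed between the Tg genotypes as well.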

How the results depend on the processing

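The count of called members changed in these cases. In the Tg cerebellum at 12 weeks (2 called) it was 0 with the score as covariate, 1 without the filter (4.17% of all genes), 1 without the trend (5.47%), 19 with the replicate block (6.91%) and between 1 and 9 when a library was left out. It was 2 in the Tg cerebellum at 5 weeks with the covariate, and 1 and 4 in the Tg inferior olive at 5 and 12 weeks with the replicate block (0.0216% and 0.0288% of all genes). For the age by genotype term of the Tg inferior olive it was 20 with the replicate block (0.384% of all genes). Only the Tg inferior olive at 12 weeks met the rule for pairing. Elsewhere, as at 5 weeks in this term, the block pairs libraries by number alone. Leaving out a library gave 0 to 8 in the younger KI inferior olive and 0 to 1 for the model by genotype term in the cerebellum at 12 weeks. Same-numbered libraries deviated together with correlations from -0.36 to 0.50 over the 8 tables, and the replicate block changed no other count of called members. The adjusted p of Sulf1 in the last term ranged from 0.0150 to 0.0800 over the alternatives (limma). No direction of a called value turned. The median log2 fold change of the members ran, over omissions of a library, from -1.50 to 0.05 in the KI olive at 12 weeks, -1.29 to 0.30 in the KI cerebellum at 12 weeks, -1.22 to 0.17 in the Tg cerebellum at 5 weeks and -0.54 to 0.33 in the KI cerebellum at 5 weeks, and kept its sign in the other 4 tables. The causes were not tested. Ttr varied by 3.23 to 258 times within a table, which limits the differences that 3 libraries per genotype can show.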
